A study of Mus musculus with 8 samples.

Results

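Mitochondrial protein import is represented here by 29 genes, of 17625 genes with a count in these libraries. They were chosen by symbol: genes named Timm or Tomm with a number, Timmdc1, and Atad3a, Grpel1, Pam16 and Dnajc19. One further symbol that met the rule, Tomm20l, had a count of 0 in all 8 libraries and was left out. The rule itself used names and the presence of any count. It was set with earlier results of these data known, so the choice was not blind to the difference between media. Most proteins of mitochondria are made in the cytosol and enter through the TOM complex of the outer membrane. From there, precursors with a cleavable presequence pass the TIM23 complex of the inner membrane and are drawn into the matrix by an ATP-driven motor. Carrier proteins are instead escorted by the small TIM chaperones of the intermembrane space and inserted by the TIM22 complex. T cells enlarge and rebuild their mitochondria after activation, which makes the import machinery part of their growth programme.

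The libraries are bulk RNA from OT-I CD8 T cells, mouse T cells whose transgenic receptor recognises the ovalbumin peptide SIINFEKL. After activation by the peptide, 4 libraries came from cells held for 5 days with IL-2 in RPMI, 10% fetal bovine serum and 470 µM o-phosphoethanolamine (pEtn), a precursor of phosphatidylethanolamine. The 4 libraries of the other medium had the same peptide, IL-2, serum and time without added pEtn, and the comparison asks what pEtn does to transcripts. The labels do not say whether numbered libraries came from separate mice or cultures, so p-values measure the spread between these libraries, which may be technical.

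Total counts ran from 29223765 to 35504571 per library with pEtn and from 31280997 to 34474420 in RPMI. Replicates 3 and 4 stood close together in both media: a chi-square comparison of their counts gave 5.04 per gene with pEtn and 11.2 in RPMI, against 51.1 to 107 for the other pairs within a medium. CD8 T cell markers were present (7 of 7, summed 2690 to 3259 CPM with pEtn and 2538 to 3149 CPM in RPMI), while markers of B cells (3 of 4 with a count) summed to at most 3.23 CPM and those of macrophages and monocytes (3 of 4) to at most 2.44 CPM. Natural killer cell markers (2 of 2) summed to 5.89 to 33.9 CPM with pEtn and 15.9 to 31.1 CPM in RPMI. Nearly all of that was Klrb1c, with Ncr1 at or below 0.0978 CPM. Dendritic cell markers (3 of 4, Clec9a at 0) summed to 7.77 to 30.1 CPM with pEtn and 14.1 to 37.4 CPM in RPMI. Most of the dendritic cell sum was Xcr1, lower with pEtn in each number. It had 22.4, 9.77, 6.40 and 6.45 CPM in pEtn replicates 1 to 4, against 33.4, 19.7, 13.2 and 13.7 CPM in RPMI. Itgax of the same list went the other way in each number. It had 7.63, 2.47, 1.81 and 1.32 CPM with pEtn, against 3.92, 1.42, 0.805 and 0.959 CPM in RPMI. Flt3 was at or below 0.0652 CPM. The part of these RNAs in the results was not tested. Cd4 was at or below 1.02 CPM and Foxp3 at or below 0.424 CPM, although the list of 5 CD4 and regulatory T cell markers summed to 51.9 to 70.2 CPM with pEtn and 26.0 to 56.0 CPM in RPMI, mainly through Zbtb7b and Gata3. Genes of the mitochondrial genome held a share of all counts of 2.80% ± 0.126 with pEtn and 1.91% ± 0.491 in RPMI (SD, n = 4 each).

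Of the import transcripts 8 fell with pEtn, and the size of the difference varied widely between the subunits. Of the 29 genes, 27 had enough counts to be tested. With edgeR, 8 of the 27 fell and 0 rose at a Benjamini-Hochberg adjusted p under 0.05, a share of 29.6%, where 7.56% of all 11862 genes tested fell and 5.22% rose. The 8 were Atad3a, Timm9, Timm10, Tomm5, Tomm40, Tomm70a, Tomm20 and Timm8a1. The median log2 fold change of the 27 genes was -0.28, against 0.02 for all genes tested, and 25 of them (92.6%) were below 0, against 47.8% of all genes. In 9 of the 27 (33.3%) every pEtn library lay below every RPMI library, which held for 10.6% of all genes. The same-numbered libraries of the media varied together, although numbers 3 and 4 did so nearly as much with each other. With the replicate number as a block 13 of the 27 fell and 0 rose (48.1%, against 16.5% of all genes falling and 15.8% rising). With replicates 3 and 4 of each medium summed into 1 library, 4 fell and 0 rose (14.8%, against 2.05% of all genes falling and 0.659% rising), namely Atad3a, Timm9, Timm10 and Tomm5. In a bulk sample, fewer cells with much of an RNA and less of that RNA per cell cannot be told apart.

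**Figure D1:**
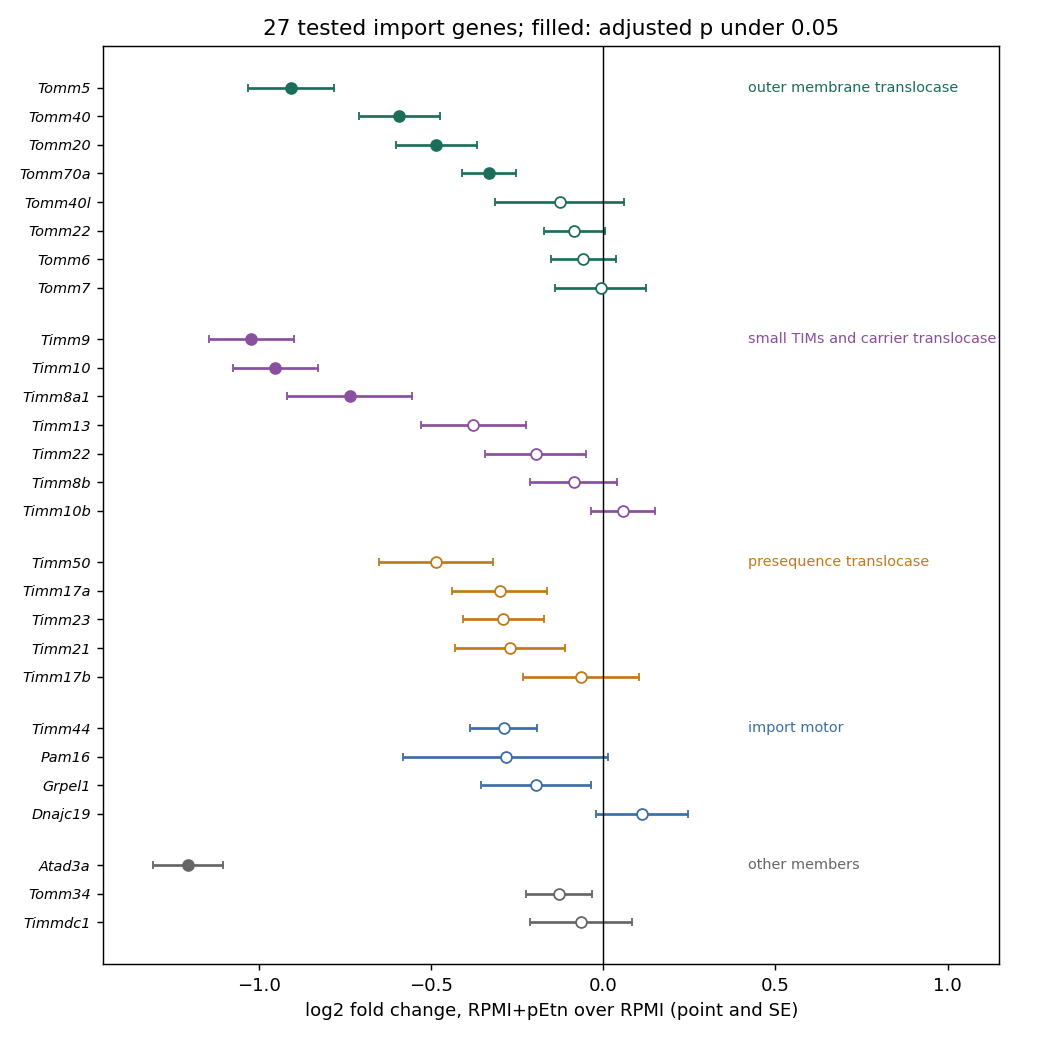
Log2 fold change of the 27 tested import genes, RPMI+pEtn over RPMI (horizontal axis, point and SE from edgeR, n = 4 libraries per medium), grouped by complex. Filled points are the 8 genes with adjusted p under 0.05, all left of 0, from Atad3a at -1.20 to Tomm70a at -0.33.

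The count of 8 depended on single libraries. It was 5 without pEtn replicate 1, without pEtn replicate 4 or without RPMI replicate 4, where 5.41%, 4.51% and 4.9% of all genes fell, and 10 without RPMI replicate 2, where 7.83% fell. It was 1 in replicates 1 and 2 only, which was Atad3a (0.181% of all genes), and 22 in replicates 3 and 4 only (24.7% of all genes). Atad3a, Timm9, Timm10, Tomm5 and Tomm40 kept their calls in each of the 8 fits that left out 1 library. DESeq2 put 10 of the 27 lower and 0 higher, where 10.9% of all genes were lower. Under the other scaling, without a filter, with a stricter filter and with limma, 8, 8, 9 and 8 fell, where 7.71%, 4.77%, 9.61% and 7.28% of all genes fell. With both the block and the sum of replicates 3 and 4, 9 fell (10.7% of all genes).

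The 5' ends of the falling genes were read for short motifs, since the 8 moved in the same direction. RefSeq promoter windows (GRCm38.p6, 250 bases before to 50 after the annotated start) were at hand for 25 of the 29 genes, among them 7 of the 8 that fell and 16 that were tested and not called. The E-box CACGTG is a palindrome bound by basic helix-loop-helix factors. It was in a window of 4 of those 7 genes and of 0 of the 16, and in 7.15% of all 32851 windows. The 25 genes had 27 windows, so counts of genes stand here beside a share of windows. The 4 windows are shown with the E-box in capitals, each read 5' to 3' on the strand of its gene. They lie at chr12:71136626-71136925 (- strand) for Timm9, chr2:84826771-84827070 (+ strand) for Timm10, chrX:134541621-134541920 (- strand) for Timm8a1 and chr8:126945872-126946171 (- strand) for Tomm20.
Timm9: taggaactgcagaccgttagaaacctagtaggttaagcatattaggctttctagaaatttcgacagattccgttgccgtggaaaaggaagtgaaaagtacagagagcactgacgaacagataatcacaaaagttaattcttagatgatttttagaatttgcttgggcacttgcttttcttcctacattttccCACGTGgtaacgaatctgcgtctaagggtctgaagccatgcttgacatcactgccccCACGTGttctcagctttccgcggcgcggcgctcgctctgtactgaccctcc
Timm10: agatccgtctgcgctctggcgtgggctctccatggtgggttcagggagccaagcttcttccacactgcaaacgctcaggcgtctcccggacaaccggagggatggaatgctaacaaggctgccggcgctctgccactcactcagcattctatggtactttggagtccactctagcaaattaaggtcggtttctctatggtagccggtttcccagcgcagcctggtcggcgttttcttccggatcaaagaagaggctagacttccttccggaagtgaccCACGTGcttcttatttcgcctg
Timm8a1: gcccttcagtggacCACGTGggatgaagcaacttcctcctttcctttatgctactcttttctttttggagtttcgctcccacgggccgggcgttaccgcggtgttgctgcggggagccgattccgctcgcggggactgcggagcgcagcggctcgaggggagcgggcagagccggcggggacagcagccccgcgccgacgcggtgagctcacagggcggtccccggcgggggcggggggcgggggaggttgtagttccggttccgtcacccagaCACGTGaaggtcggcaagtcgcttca
Tomm20: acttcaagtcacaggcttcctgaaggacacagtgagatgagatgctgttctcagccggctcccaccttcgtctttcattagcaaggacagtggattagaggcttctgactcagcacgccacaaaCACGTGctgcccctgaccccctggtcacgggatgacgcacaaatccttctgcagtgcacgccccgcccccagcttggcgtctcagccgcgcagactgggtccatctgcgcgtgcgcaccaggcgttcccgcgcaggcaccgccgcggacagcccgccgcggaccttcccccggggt
Timm9 and Timm8a1 each held 2 E-boxes and Timm10 and Tomm20 held 1. In Timm9 one began 1 base before the start and spanned it, and the other began 58 bases before it. Those of Timm8a1 began 236 bases before the start and at base 25, counting the start as base 1. That of Timm10 began at base 29, and that of Tomm20 began 126 bases before it. The fifth member with an E-box was Tomm6os, which had too few counts to be tested. The motif was picked among 5 searched, on both strands, after the values were known. The split into 7 and 16 also rests on the calls without the block. Of the 16, Timm50, Timm44, Timm13, Timm23 and Timm17a fell with the block. Of the 4 genes with an E-box, Timm8a1 and Tomm20 were not called with replicates 3 and 4 summed (edgeR adjusted p = 0.137 and 0.146). CCGGAAG, of ETS factors, was in windows of 2 of the 7 and 7 of the 16 genes (8.86% of all windows). CCAAT was in 1 and 7 (37.4% of all), the NRF1 motif in 1 and 2 (4.60%), and the YY1 motif in 0 and 1 (0.852%). No E-box in the 4 windows overlapped a match of another motif. These are matches of letters, and binding was not measured.

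Among the members as a whole, levels per length spanned a wide range. In the deposited TPM values, Tomm22 stood highest with 301 ± 3.71 TPM with pEtn and 316 ± 22.8 TPM in RPMI (SD, n = 4 each). Timm23 followed with 251 ± 21.9 TPM with pEtn and 304 ± 36.1 TPM in RPMI. The lowest of the 27 was Timm10b, with 13.4 ± 0.694 TPM with pEtn and 12.8 ± 0.524 TPM in RPMI. Tomm5 shared the top ranks in RPMI at 296 ± 44.7 TPM, within the spread of Timm23 and Tomm22 there, and stood at 159 ± 7.40 TPM with pEtn, beside Tomm7 at 159 ± 8.03 TPM. The 2 untested members were near 0: Timm8a2, a close relative of Timm8a1, had 0 to 4 counts per library with pEtn and 1 to 3 in RPMI, and Tomm6os, a noncoding RNA opposite Tomm6, had 3 to 7 with pEtn and 2 to 6 in RPMI. Summed over the 29 genes, the level was 2111 ± 68.2 TPM with pEtn and 2670 ± 268 TPM in RPMI (SD, n = 4 each).

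**Figure D2:**
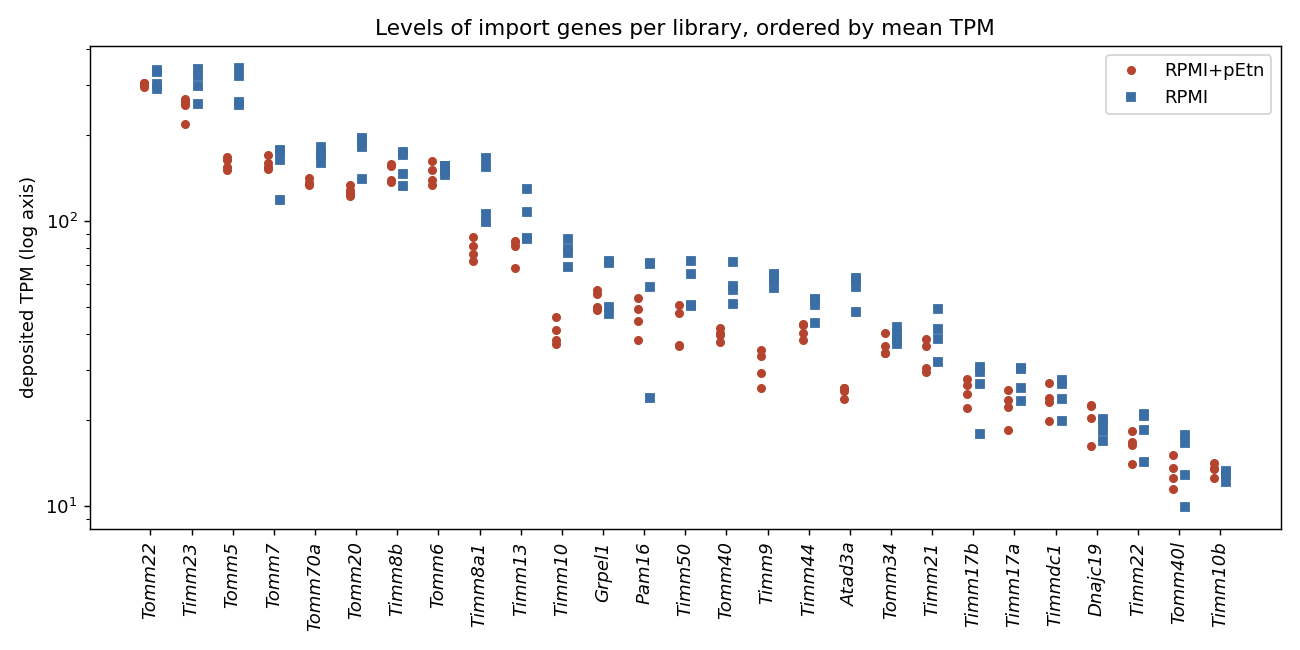
Deposited TPM of the 27 import genes above 1 TPM (log axis) in each library, ordered by mean level, with RPMI+pEtn as circles on the left of each pair and RPMI as squares. Mean levels run from Tomm22, at 301 TPM with pEtn and 316 TPM in RPMI, to Timm10b, at 13.4 TPM with pEtn and 12.8 TPM in RPMI.

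In the outer membrane translocase, 4 of 8 genes fell (50%, against 7.56% of all genes) and 0 rose. Tomm40 encodes the beta-barrel pore. It stood at 59.8, 68.9, 66.0 and 63.5 CPM (counts scaled to library size by TMM) in pEtn replicates 1 to 4, against 91.0, 82.7, 118 and 97.8 CPM in RPMI replicates 1 to 4. The media did not overlap, and Tomm40 fell by 0.59 on the log2 scale (SE 0.12, edgeR adjusted p = 0.0114), with adjusted p = 0.0833 when replicates 3 and 4 were summed. Tomm5 encodes a small subunit that sits beside the pore. Its libraries held 50.3, 54.7, 56.2 and 49.6 CPM with pEtn, against 82.9, 86.8, 108 and 117 CPM in RPMI. The pEtn values lay close together while RPMI replicates 3 and 4 were the highest, and Tomm5 fell by 0.91 on the log2 scale (SE 0.13, edgeR adjusted p = 0.00240).

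The receptors of the outer membrane differed among themselves. Tomm20, a receptor for presequences, had 234, 235, 257 and 241 CPM with pEtn, against 262, 361, 376 and 352 CPM in RPMI, where replicate 1 lay close to the pEtn range. It fell by 0.48 on the log2 scale (SE 0.12, edgeR adjusted p = 0.0248). The adjusted p was 0.0634, 0.0503 and 0.0704 without pEtn replicates 1, 3 and 4, and 0.0805 and 0.0707 without RPMI replicates 3 and 4. Tomm70a (present symbol Tomm70), the receptor that takes carrier precursors from cytosolic chaperones, had 192, 206, 198 and 190.1 CPM with pEtn, against 240.4, 263, 234 and 253 CPM in RPMI. The gap was narrow but complete, and Tomm70a fell by 0.33 (SE 0.08, edgeR adjusted p = 0.0231). The adjusted p was 0.0537, 0.0671 and 0.0824 without pEtn replicates 1, 3 and 4, and 0.0691 without RPMI replicate 4. Tomm22, the central receptor, was at 125 to 131 CPM with pEtn and 121 to 146 CPM in RPMI (log2 fold change -0.08, SE 0.09, edgeR adjusted p = 0.586). The other small subunits, Tomm6 and Tomm7, had log2 fold changes of -0.06 and -0.01 (SE 0.09 and 0.13, edgeR adjusted p = 0.739 and 0.984), and their media overlapped.

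**Figure D3:**
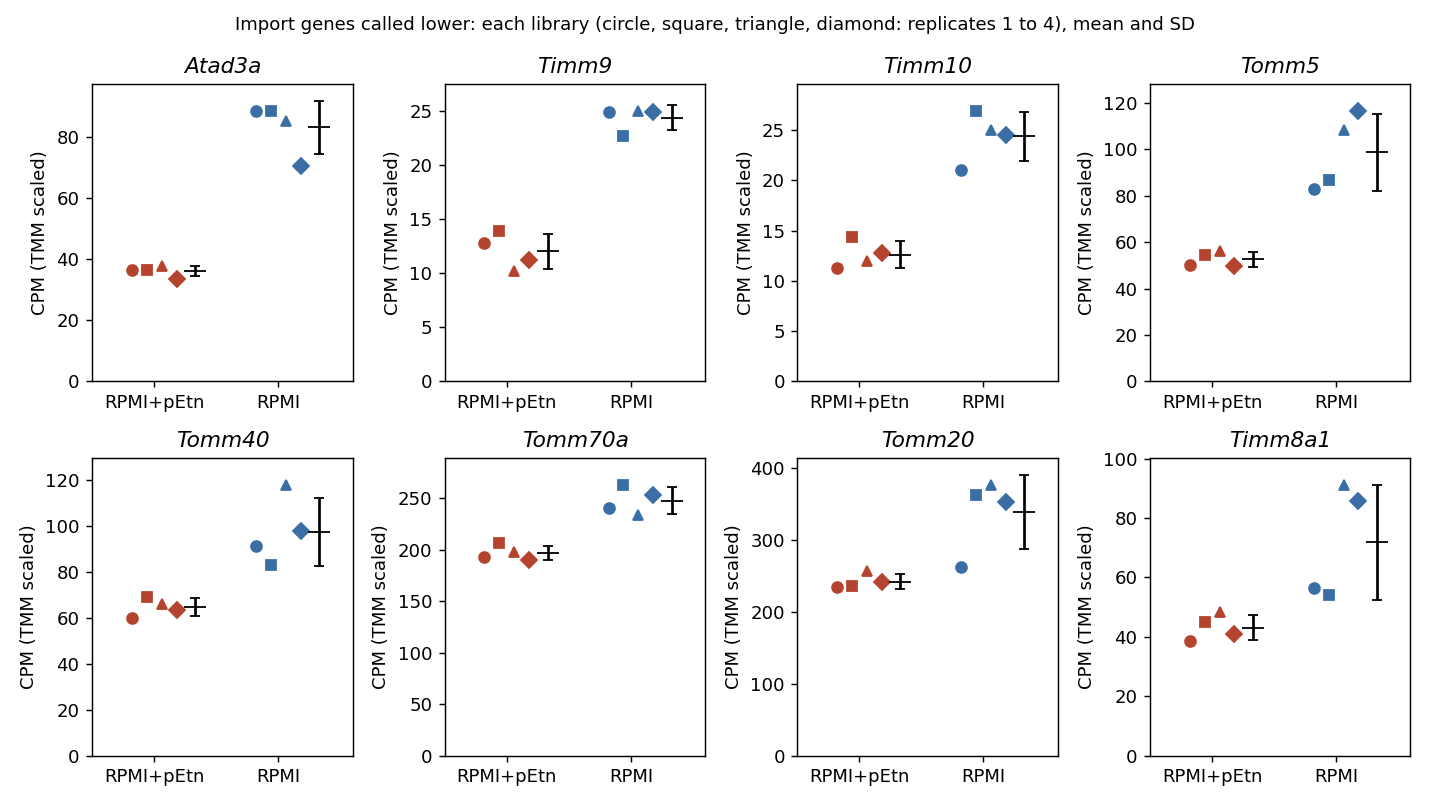
CPM after TMM scaling of the 8 import genes that fell, in each of 4 RPMI+pEtn libraries (left) and 4 RPMI libraries (right), with mean and SD beside them (vertical axes start at 0). Symbols give the replicate number, and in each panel every pEtn library is below every RPMI library.

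The chaperones of the intermembrane space held the largest falls among the translocase subunits. Of 7 tested genes of the small TIM and carrier branch 3 fell (42.9%, against 7.56% of all genes) and 0 rose. Timm9 and Timm10 form one hexamer that shields carrier precursors. Timm9 had 12.8, 13.9, 10.2 and 11.2 CPM with pEtn, against 24.9, 22.6, 25.0 and 24.9 CPM in RPMI. Timm10 had 11.3, 14.4, 12.03 and 12.8 CPM with pEtn, against 21.0, 26.95, 25.1 and 24.5 CPM in RPMI. For both, the highest pEtn library was far below the lowest RPMI library. Timm9 fell by 1.02 on the log2 scale (SE 0.12, edgeR adjusted p = 0.00144) and Timm10 by 0.95 (SE 0.12, edgeR adjusted p = 0.00196). Per length, the partners stood at 31.0 ± 4.26 TPM (Timm9) and 40.6 ± 3.99 TPM (Timm10) with pEtn, and at 62.4 ± 3.13 and 78.0 ± 7.15 TPM in RPMI (SD, n = 4 each).

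Timm8a1 and Timm13 form the other hexamer, which serves inner membrane proteins such as Timm23. Timm8a1 had 38.5, 44.9, 48.3 and 40.8 CPM with pEtn, against 56.3, 54.0, 91.1 and 85.8 CPM in RPMI, where replicates 3 and 4 stood well above replicates 1 and 2. It fell by 0.74 on the log2 scale (SE 0.18, edgeR adjusted p = 0.0280). The adjusted p was 0.0762 and 0.0782 without pEtn replicates 1 and 4, and 0.0795 and 0.0782 without RPMI replicates 3 and 4. Timm13 was at 32.2 to 40.3 CPM with pEtn and 39.4 to 61.4 CPM in RPMI (log2 fold change -0.38, SE 0.15, edgeR adjusted p = 0.135, 0.0225 with the replicate block, and 0.0889 once replicates 3 and 4 were summed in the blocked fit). Its lowest RPMI library lay inside the pEtn range. Timm8b, a relative of Timm8a1, stood at 27.1 to 32.2 CPM with pEtn and 26.2 to 35.9 CPM in RPMI. Timm10b, which ties the Timm9 and Timm10 hexamer to the carrier translocase, stood at 19.7 to 21.7 CPM with pEtn and 18.9 to 20.6 CPM in RPMI. Timm22, the pore of that translocase, stood at 17.2 to 21.8 CPM with pEtn and 17.4 to 25.9 CPM in RPMI. The edgeR adjusted p of Timm8b, Timm10b and Timm22 were 0.710, 0.739 and 0.422.

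None of the 5 presequence translocase genes passed the test without the block. With it 3 fell (60%, against 16.5% of all genes), of which only Timm50 also fell when replicates 3 and 4 were summed in the blocked fit. Timm50, the receptor that hands presequences to the channel, had 36.8, 37.7, 52.4 and 48.1 CPM with pEtn, against 51.0, 51.5, 74.6 and 68.1 CPM in RPMI. Replicates 3 and 4 were higher than 1 and 2 in both media, so the media overlapped while each numbered pair differed by a like amount: -0.47, -0.45, -0.51 and -0.50 on the log2 scale for numbers 1 to 4. Its log2 fold change was -0.49 (SE 0.17, edgeR adjusted p = 0.0863), with adjusted p = 0.00153 with the block and 0.0106 once replicates 3 and 4 were summed as well. Timm23, the channel, stood at 146 to 185 CPM with pEtn and 176 to 237 CPM in RPMI (log2 fold change -0.29, SE 0.12, edgeR adjusted p = 0.137, and 0.0389 with the block). Its channel partner Timm17a stood at 54.6 to 77.7 CPM with pEtn and 68.9 to 93.3 CPM in RPMI (log2 fold change -0.30, SE 0.14, edgeR adjusted p = 0.186, and 0.0335 with the block). Timm17b, the alternative partner, and Timm21, a subunit that contacts the outer membrane complex, had log2 fold changes of -0.06 and -0.27 (edgeR adjusted p = 0.842 and 0.303, and 0.821 and 0.0791 with the block).

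Of the 4 import motor genes none passed the test without the block. Timm44, the anchor of the motor's Hsp70, had 52.6, 57.1, 60.8 and 60.1 CPM with pEtn, against 72.4, 61.7, 71.4 and 76.1 CPM in RPMI. The media did not overlap, but the log2 fold change was only -0.29 (SE 0.10, edgeR adjusted p = 0.0799, 0.0261 with the block, 0.0859 once replicates 3 and 4 were summed in the blocked fit, and 0.0352 without RPMI replicate 2). Pam16, a J-like regulator of the Hsp70, was scattered in RPMI. It had 17.3, 16.2, 14.8 and 12.4 CPM with pEtn, against 18.8, 7.83, 23.4 and 23.8 CPM in RPMI. With RPMI replicate 2 the edgeR adjusted p was 0.588 and the log2 fold change -0.28 (SE 0.30), and without it 0.0462 and -0.55. Dnajc19, the J-protein, and Grpel1, the nucleotide exchange factor, had log2 fold changes of 0.11 and -0.19 (SE 0.13 and 0.16, edgeR adjusted p = 0.637 and 0.475), and their media overlapped.

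The largest fall of all members was that of Atad3a, an ATPase of the inner membrane that organises nucleoids and membrane contacts and is no subunit of a translocase. It had 36.6, 36.6, 37.8 and 33.6 CPM with pEtn, against 88.6, 88.7, 85.2 and 70.5 CPM in RPMI. The pEtn libraries were nearly level and far below the lowest RPMI library. Atad3a fell by 1.20 on the log2 scale (SE 0.10, edgeR adjusted p = 0.000371), 2.30-fold, with adjusted p = 0.00497 when replicates 3 and 4 were summed and 0.0347 in replicates 1 and 2 only. Tomm34, a cytosolic cochaperone, and Timmdc1, an assembly factor of respiratory complex I, had log2 fold changes of -0.13 and -0.06 (SE 0.10 and 0.15, edgeR adjusted p = 0.428 and 0.823).

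The difference between media was smaller in replicate numbers 1 and 2. The median difference of the 27 genes was -0.16, -0.07, -0.31 and -0.41 on the log2 CPM scale in numbers 1 to 4, with 23, 18, 24 and 25 of the 27 below 0. In 16 of the 27 (59.3%) the pEtn library was lower in 4 of 4 numbers, which held for 23.9% of all genes tested. For Timm10 the 4 differences were -0.90, -0.90, -1.06 and -0.94, and for Atad3a -1.27, -1.27, -1.17 and -1.07, so that Atad3a differed as much in numbers 1 and 2, and Timm10 slightly less. Tomm40 differed by -0.60, -0.26, -0.83 and -0.62 and Timm8a1 by -0.55, -0.27, -0.91 and -1.07. Library measures also moved with the numbers. The log2 difference of the mitochondrial genome's share was 0.40, 0.18, 0.99 and 0.77, that of the nuclear RNA Malat1 was -0.11, -0.19, 1.40 and 1.38, and that of Neat1 was 0.00, 0.51, 1.08 and 1.25. Their part in the results was not tested.

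**Figure D4:**
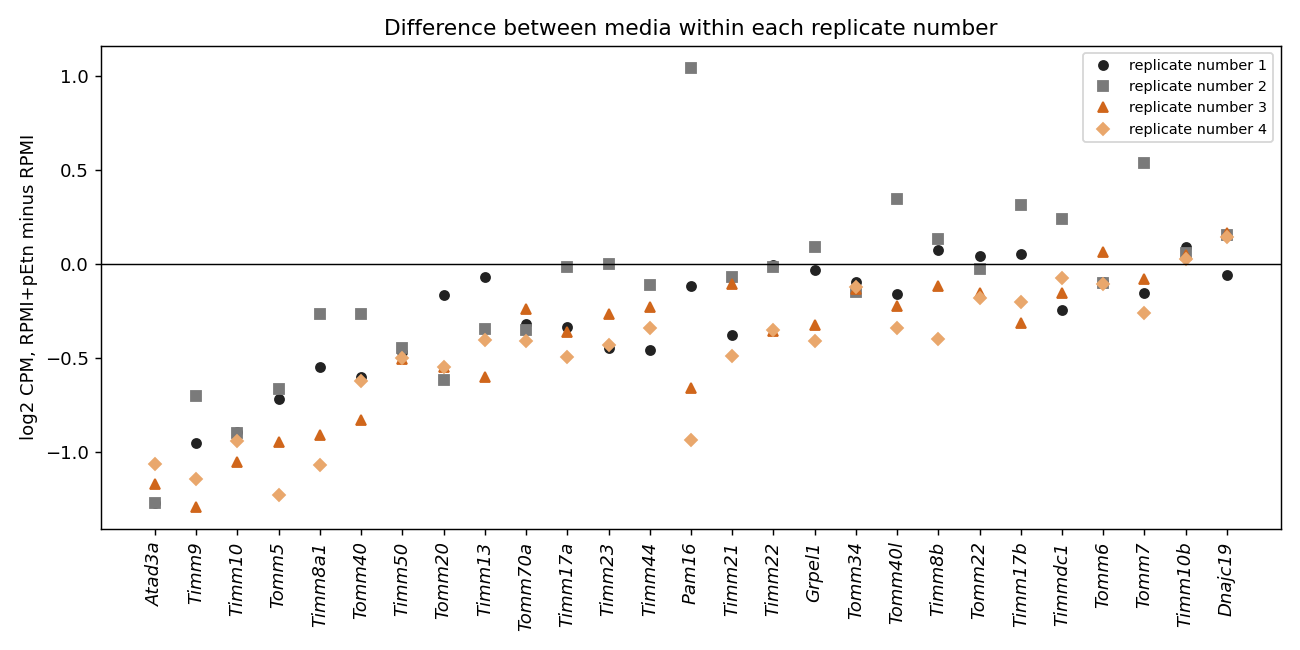
Log2 CPM difference, RPMI+pEtn minus RPMI, within each replicate number for the 27 tested import genes, ordered by their edgeR log2 fold change. Atad3a, Timm9, Timm10 and Tomm5 lie well below 0 in all 4 numbers, and replicate number 2 of Pam16 stands apart at 1.05.

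Where a subunit has an alternative form, the balance of both was compared as a ratio of TPM. Tomm40 was 3.28, 3.36, 2.67 and 2.93 times Tomm40l, a second form of the pore, with pEtn, against 4.46, 5.14, 4.06 and 3.55 times in RPMI. The ratios did not overlap, and the mean log2 ratio differed by -0.48 (exact two-sided permutation p = 0.0286, the smallest that 4 against 4 allows, and 0.114 after Benjamini-Hochberg adjustment over 4 ratios). Tomm40l itself stood at 22.1 to 30.0 CPM with pEtn and 19.5 to 35.1 CPM in RPMI (edgeR adjusted p = 0.709). The log2 ratios of Timm17a to Timm17b, of Grpel1 to Grpel2 and of Dnajc19 to Dnajc15 differed by -0.26, 0.20 and -0.13 (exact two-sided permutation p = 0.314, 0.571 and 0.486, each 0.571 adjusted).

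Other genes that serve the same route were read from 7 lists with 50 tested genes, of which 5 fell and 0 rose, a share near the 7.56% of all genes. With replicates 3 and 4 summed 2 of the 50 fell, Chchd4 and Phb2, and 0 rose, against 2.05% and 0.659% of all genes. With the replicate block 16 of the 50 fell, a larger share than the 16.5% of all genes. Only 1 of the 50 rose with the block, the kinase Pink1, a smaller share than the 15.8% of all genes. Pink1 had 55.0, 28.2, 26.4 and 26.9 CPM with pEtn, against 37.4, 24.0, 17.0 and 17.2 CPM in RPMI, and the media overlapped. Its edgeR adjusted p was 0.00462 with the block, 0.322 without it and 0.520 with replicates 3 and 4 summed. The clearest fall was that of Chchd4, the oxidoreductase that traps and folds the small TIMs in the intermembrane space. It had 12.8, 17.9, 15.4 and 12.8 CPM with pEtn, against 29.5, 33.02, 33.1 and 31.3 CPM in RPMI. The media were far apart, and Chchd4 fell by 1.11 on the log2 scale (SE 0.13, edgeR adjusted p = 0.00143), close to Timm9 and Timm10. Its sulfhydryl oxidase partner Gfer had a log2 fold change of -0.30 (edgeR adjusted p = 0.164).

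In the matrix, Hspa9, the Hsp70 of the motor, averaged 546 ± 64.6 CPM with pEtn and 789 ± 118 CPM in RPMI (SD, n = 4 each). It fell by 0.53 on the log2 scale (SE 0.13, edgeR adjusted p = 0.0249), with adjusted p = 0.0581, 0.0541 and 0.0651 without pEtn replicates 1, 3 and 4 and 0.0800 and 0.0730 without RPMI replicates 3 and 4. The chaperonin Hspd1 averaged 518 ± 115 CPM with pEtn and 807 ± 163 CPM in RPMI (edgeR adjusted p = 0.0541, and 0.00245 with the block). Of the 8 genes in the matrix motor and folding list 1 fell without the block, 6 with it and 0 with replicates 3 and 4 summed. Of all genes 7.56%, 16.5% and 2.05% fell in those fits. With replicates 3 and 4 summed, Hspa9 had an edgeR adjusted p = 0.146 and Hspd1 0.165. Among 7 presequence processing genes 1 fell, the inner membrane peptidase subunit Immp2l, at 0.785 ± 0.226 CPM with pEtn and 2.50 ± 0.717 CPM in RPMI (log2 fold change -1.66, edgeR adjusted p = 0.00859, and 0.0805 with replicates 3 and 4 summed).

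Of 12 quality control genes 2 fell and 0 rose, where 7.56% of all genes fell and 5.22% rose. Phb2, a prohibitin that scaffolds the inner membrane, averaged 156 ± 14.3 CPM with pEtn and 241 ± 24.0 CPM in RPMI, and fell by 0.62 (SE 0.10, edgeR adjusted p = 0.0055). Clpp, the matrix protease, averaged 15.2 ± 1.80 CPM with pEtn and 23.7 ± 3.70 CPM in RPMI, and fell by 0.64 (SE 0.14, edgeR adjusted p = 0.0174), with adjusted p = 0.0516 without pEtn replicate 1, 0.0538 without RPMI replicate 3 and 0.0870 with replicates 3 and 4 summed. Of 11 genes of beta-barrel assembly and cristae contacts, 5 of membrane insertion and 4 of cytosolic delivery, 0 fell and 0 rose with edgeR without the block. With the block, 2, 0 and 1 of them fell, where 16.5% of all genes fell.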

How the data were processed

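RNA of 8 libraries (4 RPMI+pEtn, 4 RPMI) was analysed from 1 table. Per the labels' protocols, cells were sorted into lysis buffer and their cDNA was amplified in 15 cycles (Takara SmartSeq). Per the submitters' processing notes the genome build was GRCm39. Not given in the sources used here: aligner, counter, annotation, strand setting. Close copies, pseudogenes and antisense genes could therefore share reads. The deposited table holds whole-number counts, which were used for all main tests, and TPM and RPKM scaled by the authors for gene length. A column headed CPM by the authors was treated as a signal, since it equals the count times 1 constant per library, and was not used.

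The tests on counts used edgeR 4.0.16 (R 4.3.3): filterByExpr (11862 genes), TMM scaling, robust quasi-likelihood F test, Benjamini-Hochberg adjustment over all genes, and a threshold of 0.05. The fit was tested on simulated data drawn as independent libraries, without the closeness of replicates 3 and 4 seen here. SE came from the F statistic. CPM is given after TMM scaling, except for markers and library measures. Differences within replicate numbers use log2 CPM with a prior count of 2. Alternatives were DESeq2 1.42.0, limma 3.58.1 on log2(TPM + 1), other scaling and filters, the replicate block, replicates 3 and 4 summed or split, and each library left out. Deviations from group means correlated at 0.57, 0.55, 0.44 and 0.45 between same-numbered libraries, above the 0.1 set for pairing. Other-numbered pairs also passed 0.1: pEtn 4 with RPMI 3 at 0.41, pEtn 3 with RPMI 4 at 0.38 and pEtn 1 with RPMI 2 at 0.15. The data thus hardly tell numbers 3 and 4 apart. The pairing comes from the shared numbers and the data, with no label that explains a number. The members, lists and motifs were chosen with earlier results of these data known. Every member is accounted for, and of the other lists genes among the 3 smallest p could be named. Pink1 was named because it was the 1 gene that rose with the block, after its values were seen. The labels name no molecular identifiers, so reads amplified from 1 molecule may be counted more than once.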

Additional observations from a re-analysis of the deposited data

Results flagged for a closer look

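In 54 groups of 4 libraries (27 genes, 2 media), a library far from the others of its medium was found in 2, and chance gives this in about 1 of 20 groups. Both were RPMI replicate 2. Timm9 stood at 22.6 CPM there, against 24.9 to 25.0 CPM in the other RPMI libraries, which is still above the highest pEtn library at 13.9 CPM. Timm10b stood at 18.9 CPM there, against 20.3 to 20.6 CPM in the other RPMI libraries.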

How the results depend on the processing

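The direction of the 8 falling genes held under each alternative run. The count of import genes called lower was 13 with the replicate block, 4 with replicates 3 and 4 summed, 1 in replicates 1 and 2 only and 22 in replicates 3 and 4 only, and 5 to 10 with 1 library left out. It was 8 to 10 with other scaling, filters, DESeq2 or limma, and 9 with block and sum together. The count called higher was 0 throughout, also with 1 library left out. Over all genes, calls were 1871 higher and 1959 lower with the block, 79 and 246 with replicates 3 and 4 summed, 10 and 22 in replicates 1 and 2 only, and 2761 and 2914 in replicates 3 and 4 only. With DESeq2 974 genes were higher, and 1044 with block and sum together. With 1 library left out, 250 to 688 were higher and 542 to 950 lower. The median log2 fold change of the import genes ranged from -0.34 to -0.15 with 1 library left out. The log2 ratio difference of Dnajc19 to Dnajc15 ranged from -0.26 to 0.0059 with 1 library left out, and the other 3 ratios kept their sign. With the replicate block, an exact sign-flip test of the Tomm40 to Tomm40l difference of -0.48 gave an adjusted exact permutation p = 0.25, in a design of 4 pairs that cannot pass the threshold.

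Changes of sign were seen only in genes that were not called with all 8 libraries. Tomm7 was at 0.0087 with the replicate block, 0.049 with replicates 3 and 4 summed, 0.067 with both, 0.15 in replicates 1 and 2 only and 0.019 with limma. Timm17b was at 0.0070 with the sum, 0.033 with both and 0.15 in replicates 1 and 2 only. Pam16 was at 0.0092 with both and 0.31 in replicates 1 and 2 only, where Tomm40l, Grpel1 and Timm8b were at 0.069, 0.017 and 0.091. With 1 library left out, Tomm7 ranged from -0.13 to 0.056, Timmdc1 from -0.16 to 0.018 and Timm17b from -0.22 to 0.023. The cause was not tested.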

Other observations

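Within RPMI, 21 of the 27 import genes (77.8%) were higher in both replicates 3 and 4 than in both replicates 1 and 2, against 29.9% of all genes tested. With pEtn this held for 13 of the 27 (48.1%), against 31.4% of all genes. The spread over libraries, as SD over mean, was larger in RPMI than with pEtn for 21 of the 27 (77.8%) and for 58.4% of all genes, with medians over the 27 of 9.23% with pEtn and 15.2% in RPMI.

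Of the J-protein forms of the import motor, Dnajc15 had far more RNA than Dnajc19 in these T cells. Its TPM was 708, 724, 826 and 771 with pEtn and 725, 808, 516 and 549 in RPMI, where Dnajc19 had 16.2, 20.3, 22.6 and 22.4 TPM with pEtn and 16.9, 18.3, 20.2 and 19.6 TPM in RPMI. Grpel1 exceeded Grpel2 in each library, by 4.88, 4.88, 7.03 and 7.08 times with pEtn and 3.97, 3.60, 7.22 and 6.69 times in RPMI. These were chosen for mention after their values were seen.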
